A study of Mus musculus with 2 samples.

Results

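The neutrophil granule genes described here are 10 mouse genes chosen by symbol, out of 24421 gene symbols listed for each library. They comprise the primary granule genes Mpo, Elane, Prtn3 and Ctsg, the secondary granule genes Ngp and Camp, the calcium-binding S100a8 and S100a9, and the transcription factor genes Cebpa and Cebpe. All 10 symbols were found in both tables. In the library labelled WT Th1 the 10 genes held about 163 reads together, and in the library labelled Chi3l1 KO Th1 about 9 reads. There was 1 library per genotype, so no difference given here has a replicate check and no test between genotypes was made.

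The study asked how the loss of chitinase 3-like 1 (Chi3l1) changes the transcripts of Th1 cells. Both libraries came from naive CD4 T cells of mice on the C57BL/6J background, Chi3l1+/+ for WT and Chi3l1-/- for KO, whose receptors were stimulated by antibodies to CD3 and CD28 fixed to the plate, with IL-12, IL-2 and an antibody against IL-4 to skew them toward Th1. The deletion is carried by the whole animal and is not restricted to T cells, and the methods describe both magnetic isolation and flow sorting of naive cells without saying which gave these libraries. Whether cells of several mice were pooled was not given in the sources used here, and the methods name more than one culture time without saying which applies to these libraries.

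Neutrophils pack their weapons into granules while they mature in bone marrow. Primary granules are filled first, at the promyelocyte stage, with myeloperoxidase and serine proteases, and secondary granules follow at the myelocyte stage with antimicrobial proteins such as Ngp and cathelicidin. C/EBPα starts the granulocyte program and C/EBPε drives the late granule genes. In blood and tissue the granule proteins are used as markers of neutrophils and their precursors, although S100a8 and S100a9 are also made by monocytes. None of the genes described here, the C/EBP factor genes included, is taken as specific to neutrophils.

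The libraries held about 70638495 reads (labelled WT) and 62991545 reads (labelled Chi3l1 KO) over all genes. The deposited values are log2 of a normalized count plus 1, a reading that was inferred from the values, and undoing it gave whole-read steps, so that each low value could be turned into an approximate read number. Whether 1 such read is a read or a read pair was not given. A gene with 3 reads, the floor used here, stands at 0.0425 RPM (reads per 1000000 reads of the library) in the library labelled WT and at 0.0476 RPM in the library labelled Chi3l1 KO. Of the targeted gene, listed as Chil1, there was 1 read in the library labelled WT and there were 103 reads in the library labelled Chi3l1 KO. That goes against the label. A value per gene does not show which exons the reads came from, so a transcript left by the targeted allele and an exchange of the libraries cannot be told apart from this value. For this reason the libraries are called by their labels throughout, and every direction below is between the libraries as labelled. The T cell gene Cd3e, which encodes a chain of the T cell receptor complex, had 32483 and 30837 reads, and Cd4 had 21062 and 16286 reads, so both defining T cell genes were abundant in both libraries. Trac was not analysed here.

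Of the 10 genes, 9 were at least 2-fold lower in the library labelled Chi3l1 KO on the deposited log2 scale and none was at least 2-fold higher. Over all genes 5.81% were at least 2-fold lower and 4.70% at least 2-fold higher. The 10 genes were chosen with earlier results of these data known, so this contrast is a description only. In bulk RNA, fewer cells of a type and less RNA per cell cannot be told apart, and which cells gave the reads of the neutrophil granule genes was not measured. Genes with few reads passed 2-fold more often in both directions. Among the 3817 genes whose higher library had between 2 and 54 reads, the range of the detected granule genes, 28.7% were at least 2-fold lower and 23.7% at least 2-fold higher. With thresholds of 1.5-fold and 3-fold, 9 and 8 of the 10 genes were lower and none was higher, beside 11.4% lower and 9.60% higher of all genes at 1.5-fold and 3.0% lower and 2.35% higher at 3-fold.

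Camp and Cebpe dropped out when at least 3 reads in a library were asked for, which left 8 of the 10 genes. Of these 8, only Mpo and Ctsg had at least 3 reads in both libraries. The other 6 passed through the library labelled WT alone, so a count of lower genes among the 8 supports nothing. Of the 15174 genes that passed, 8.49% were lower and 6.72% higher. The median log2 difference over the 10 genes was -2.50, and it was -2.54 over the 9 that were above 0 in either library, beside a median of 0.00 over all genes.

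**Figure D1:**
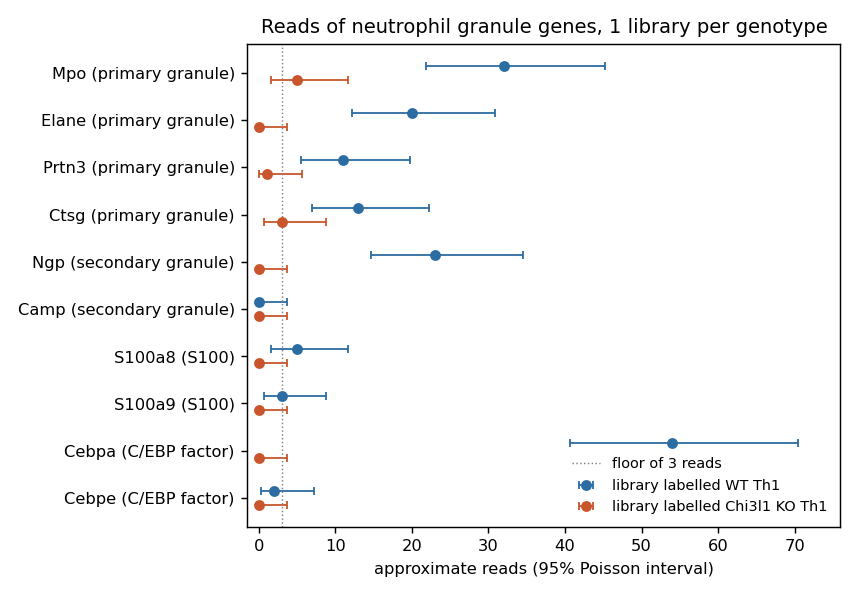
Approximate reads (x axis) of each of the 10 neutrophil granule genes (y axis) in the library labelled WT Th1 (blue) and the library labelled Chi3l1 KO Th1 (orange), with exact 95% Poisson intervals that hold counting error only. Cebpa had 54 reads against 0 and Mpo 32 against 5, Camp had 0 in both, and no gene exceeded 5 reads in the library labelled Chi3l1 KO.

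The 4 primary granule genes had 76 reads in the library labelled WT and 9 in the library labelled Chi3l1 KO, which is 1.08 and 0.143 RPM. This was 7.53-fold lower in the library labelled Chi3l1 KO, with an exact binomial (Clopper-Pearson) 95% interval from 3.76-fold to 17.1-fold for read sampling alone. All 9 reads of the 10 genes in the library labelled Chi3l1 KO belonged to this group. Such intervals take the reads as independent molecules and leave out the variation between mice and cultures.

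Mpo encodes myeloperoxidase, which makes hypochlorous acid from hydrogen peroxide and gives pus its green color. The gene spans 87793581 to 87804413 of chromosome 11, plus strand (GRCm38), and had a log2 value of 5.0 in the library labelled WT and 2.53 in the library labelled Chi3l1 KO. These values stand for about 32 and 5 reads, a 5.71-fold lower level in RPM with an interval from 2.21-fold to 18.8-fold. A noncoding gene, Gm11505, is annotated on the opposite strand across part of Mpo and shares 323 of the 2701 stretches of 50 bases in the longest Mpo transcript. The sources used here do not say whether reads were counted by strand.

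Elane encodes neutrophil elastase, a serine protease that cuts matrix and bacterial proteins. It lies on chromosome 10 from 79886247 to 79888215 and had a log2 value of 4.35 from about 20 reads in the library labelled WT, whereas it was listed at 0 in the library labelled Chi3l1 KO. Set against the floor of 3 reads, it was at least 5.94-fold lower there. The exact 95% interval of its log2 ratio in RPM, which also holds the counting error of the 20 reads, reached -2.14 at its smaller end, and the intervals of the other genes at 0 likewise reach past their bounds.

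Prtn3, the gene of the related proteinase 3, lies 3.1 kb before Elane on the same strand, from 79874476 to 79883174. It had 11 reads against 1 read, with log2 values of 3.54 and 0.94. The ratio in RPM was 9.81-fold, and its interval from 1.43-fold to 422-fold shows how little 1 read fixes. The first 159 bases of the Prtn3 gene model lie within Plppr3 on the other strand.

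Ctsg encodes cathepsin G, a chymotrypsin-like protease of the same granules, and spans 56099881 to 56102574 of chromosome 14, minus strand. It had 13 reads in the library labelled WT and 3 in the library labelled Chi3l1 KO, with log2 values of 3.76 and 1.95. It was 3.86-fold lower in RPM, with an interval from 1.06-fold to 21.1-fold. Ctsg lies 156.3 kb from Gzmb, the granzyme B gene, which had 28258 and 29234 reads, so the lytic granule protease of the same chromosome region was abundant in both libraries while Ctsg was close to the floor in one. Of the 10 genes, only Mpo and Cebpa shared any stretch of 50 bases with the transcripts of another gene, and for Cebpa these were 3 of 2577 stretches, shared with its antisense partner Gm45091.

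The promoters of 3 of the primary granule genes share a short run of letters. GAGGAAGT, the core that the myeloid factor PU.1 and other ETS factors favor, was searched on both strands of the 300-base window from 250 bases before to 50 after each annotated start (RefSeq, GRCm38.p6). The letters were picked after the sequences and the results had been seen. A larger share among these genes than among all windows was therefore fixed by that choice and supports nothing. They were in the windows of Mpo, Elane, Prtn3 and, on the opposite strand, S100a8, which is 4 of the 9 member promoters found in the table, and in 3.2% of the 32851 promoter windows searched. The 4 stretches are shown, on the strand of the gene, because they are a run of letters that the rule for choosing the genes did not use, and the matching letters are in capitals.
Mpo, chr11:87793538-87793589, plus strand: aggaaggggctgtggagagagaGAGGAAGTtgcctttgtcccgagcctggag
Elane, chr10:79886205-79886256, plus strand: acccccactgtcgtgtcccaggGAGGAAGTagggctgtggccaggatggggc
Prtn3, chr10:79879550-79879601, plus strand: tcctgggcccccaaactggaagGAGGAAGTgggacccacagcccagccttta
S100a8, chr3:90668877-90668928, plus strand: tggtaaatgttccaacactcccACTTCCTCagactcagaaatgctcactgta
The match in Elane starts 85 bases and that in Prtn3 95 bases before the RefSeq start, and those of S100a8 and Mpo start 172 and 224 bases before it. The RefSeq starts used for all 4 windows lie inside the gene models whose coordinates are given for these genes. Spi1, the gene of PU.1 itself, had 66 reads in the library labelled WT and 125 in the library labelled Chi3l1 KO. The C/EBP letters TTGCNNAA, searched the same way, were in the windows of Ngp and S100a9 and in 10.8% of the windows searched. The letters TATAAA were searched as well. They were in 4 of the 9 member windows and in 13.6% of the windows searched, a contrast that was not tested. A match is a run of letters and not a site of binding, and binding was not measured here.

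Of the secondary granule genes only Ngp was detected. Ngp encodes neutrophilic granule protein, a relative of the cathelicidins, and spans 110419747 to 110423012 of chromosome 9, plus strand. It had 23 reads and a log2 value of 4.54 in the library labelled WT and was listed at 0 in the library labelled Chi3l1 KO, which is at least 6.84-fold lower against the floor, with an interval that reached -2.36 on the log2 scale. Camp, the gene of the antimicrobial peptide cathelicidin, lies on the same chromosome from 109847379 to 109849617, 570.1 kb away, and was listed at 0 in both libraries. At this depth a count of 0 allows up to 3 reads, and the Poisson intervals of Ngp (14.6 to 34.5 reads) and Camp (up to 3.69 reads) in the library labelled WT did not overlap.

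S100a8 and S100a9 encode the 2 chains of calprotectin, which binds calcium, zinc and manganese and is among the most abundant proteins of mature neutrophils. They lie 22.6 kb apart on chromosome 3, S100a8 from 90668978 to 90670035 and S100a9 from 90692632 to 90695721. S100a8 had 5 reads and S100a9 had 3 reads in the library labelled WT, and both were listed at 0 in the library labelled Chi3l1 KO. S100a8 was at least 1.49-fold lower against the floor, but the interval of its read ratio reached 0.29 on the log2 scale and so includes no difference, while for S100a9 both libraries were at or under the floor and no fold is given. Their log2 values of 2.54 and 1.95 therefore carry little information on a difference.

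Cebpa encodes C/EBPα, the transcription factor that commits progenitors to the granulocyte line. It spans 35119293 to 35121928 of chromosome 7, plus strand, and held 33.1% of all reads of the 10 genes in the library labelled WT. There it had 54 reads and a log2 value of 5.74, and it was listed at 0 in the library labelled Chi3l1 KO, which is at least 16.1-fold lower against the floor, with an interval that reached -3.66 on the log2 scale. Without Cebpa, a choice made after seeing the data, the other 9 genes had 109 and 9 reads and were 10.8-fold lower in RPM, with an interval from 5.48-fold to 24.3-fold, against 16.2-fold and an interval from 8.30-fold to 36.0-fold for all 10. Cebpe, which encodes C/EBPε and lies on chromosome 14 from 54710360 to 54712174, had 2 reads in the library labelled WT and was listed at 0 in the other, so both values are under the floor and no fold is given.

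**Figure D2:**
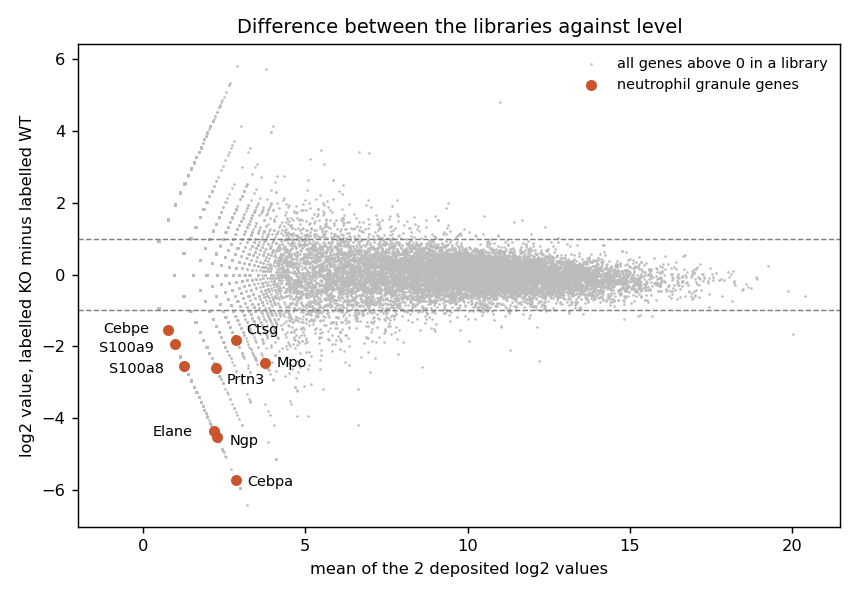
Each gene's difference in log2 value between the libraries, labelled Chi3l1 KO minus labelled WT (y axis), against the mean of its 2 deposited log2 values (x axis), with all genes above 0 in a library in grey, the 9 detected neutrophil granule genes in orange and 2-fold marked by dashed lines. The 9 genes lie at the low end of the level axis, where points on both sides spread far past 2-fold, and their differences run from -1.54 for Cebpe to -5.74 for Cebpa.

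The bottom edge of that plot is made of genes listed at 0 in the library labelled Chi3l1 KO, where the plotted difference is set by the 1 inside the log and is no bound. Of the 10 genes, 6 were above 0 in the library labelled WT and listed at 0 in the library labelled Chi3l1 KO, and none was the other way round. Over all genes 3.17% were above 0 in the first and at 0 in the second. The share was 12.7% among the genes with 2 to 54 reads and 2.39% among those with at least 3 reads in a library. A log2 ratio in RPM or a bound could be given for 7 genes, and with the genes at 0 set to their bound its median was -2.57, which is the bound of Elane. Elane, Ngp, S100a8 and Cebpa were among the 7 only through their reads in the library labelled WT, so their direction was fixed by that choice and the median is a description only.

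Per length of exon, the order of the detected genes in the library labelled WT differed from their order by reads. Cebpa had 20.5 reads per kb of annotated exon, Elane 20.3, Ngp 18.8, Ctsg 12.6, Mpo 9.35, S100a8 7.20, Prtn3 6.35, S100a9 5.75 and Cebpe 1.61. The Poisson intervals of each pair of neighbours in this order overlapped once divided by length, so no neighbours can be ranked. The level of Cd3e in the same library was 113 RPM per kb of exon, against 0.290 for Cebpa and 0.288 for Elane on that scale. By log2 value, Cebpa stood at or above 53.0% of all listed genes in the library labelled WT, a share that counts the genes listed at 0.

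The relatives of these genes did not share 1 pattern. Among the peroxidase genes, Epx, which encodes the eosinophil peroxidase, had 48 reads in the library labelled WT and 9 in the library labelled Chi3l1 KO, and Lpo, the lactoperoxidase gene, had 1 and 0. In the C/EBP family, Cebpb had 2225 and 1601 reads, Cebpd 101 and 85, and Cebpg, which lies 62.7 kb from Cebpa, 237 and 285, so none of these 3 was past 2-fold and Cebpa and Cebpe were the members listed at 0 in the library labelled Chi3l1 KO. In the S100 family, S100a10, S100a11 and S100a13 each had at least 577 reads in both libraries with log2 differences from -0.45 to 0.25. S100a1 was lower, with 30 and 5 reads, S100a3 was higher, with 3 and 11, and S100a6 had 38 and 30. Of the granzymes, which are the lytic granule proteases of T cells, Gzmb and Gzmc had log2 differences of 0.05 and -0.23, and Gzma was higher, with 24 and 52 reads.

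**Figure D3:**
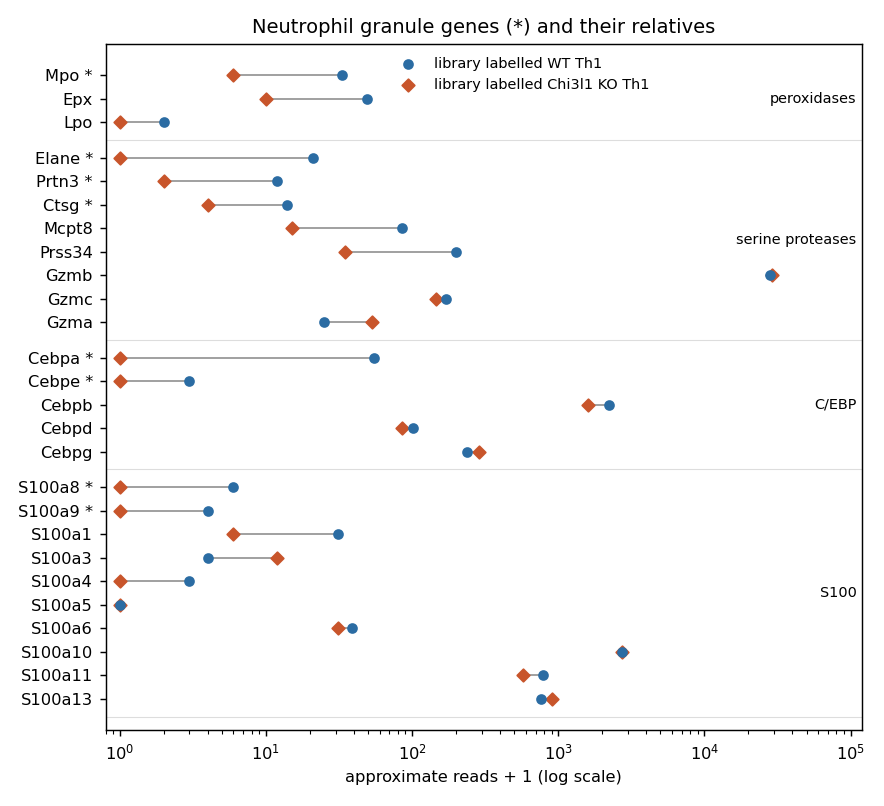
Approximate reads plus 1 on a log scale (x axis) for the neutrophil granule genes (starred) and their relatives by family (y axis), in the library labelled WT Th1 (blue circles) and the library labelled Chi3l1 KO Th1 (orange diamonds), 1 library each. The starred genes sit at 54 reads or fewer in both libraries, whereas Gzmb, Cebpb and S100a10 lie at 1601 reads or more, with nearly overlapping symbols for Gzmb and S100a10.

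Of 23 further genes of neutrophil granules, 3 were at least 2-fold lower in the library labelled Chi3l1 KO and none was higher, with a median log2 difference of -0.26 over the list. By any difference in the deposited value, 15 were lower, 1 was higher and 7 were equal, and the lower ones include Hp, which had 3 reads in each library. Ltf, Mmp8, Mmp9, Lyz1 and Cd177 had 1 read against 0, which cannot reach 2-fold on the deposited scale. Whether this list differed from the 10 genes was not tested. Lyz2, the lysozyme gene of neutrophils and macrophages, had 34 and 2 reads, a 15.2-fold ratio in RPM with an interval from 3.89-fold to 130-fold. Chil3, which encodes the chitinase-like protein Ym1 of neutrophils and macrophages, had 17 and 0, at least 5.05-fold lower against the floor, with an interval that reached -1.88 on the log2 scale. Ltb4r1, a leukotriene B4 receptor gene that T cells also express, had 25 and 10. Lcn2, the gene of the iron-scavenging lipocalin of secondary granules, had 24 and 20 reads, with a log2 difference of -0.25, whereas the single read above was all that Ltf, the lactoferrin gene of the same granules, had. In that list 7 genes were at 0 in both libraries, among them Fcnb, Bpi and Olfm4. The genes with most reads in it, Srgn, Pglyrp1 and Cst7, are also expressed by activated T cells.

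Surface and enzyme genes of neutrophils went both ways. Of 18 listed genes, 3 were at least 2-fold lower in the library labelled Chi3l1 KO and 1 was higher. Csf3r, the receptor of the granulocyte growth factor G-CSF, had 23 and 11 reads and lay at the 2-fold line, with a read ratio of 1.86-fold whose interval includes no difference. Clec4d, a myeloid lectin, had 15 and 0 reads, and Cxcl2, a chemokine that attracts neutrophils, 43 and 11. Cxcr2, the receptor for that chemokine, was higher, with 31 reads in the library labelled WT and 339 in the library labelled Chi3l1 KO. The defining genes Fpr1, Fpr2, Trem1, Retnlg and Itgb2l were at 0 in both libraries, and Ly6g was not analysed here. Of 15 regulators of myeloid cells none was at least 2-fold lower, and only Flt3, a receptor of early progenitors and dendritic cells, was at least 2-fold higher, with 18 and 68 reads. Irf8 alone had 32845 and 40859 reads and Runx1 18425 and 13732, of 63185 and 64731 in that list. Which cells gave the reads of these regulators was not measured, so the list does not show how myeloid cells differed.

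Markers of eosinophils, basophils and mast cells were mostly lower as well. Of 14 listed markers, 8 were at least 2-fold lower in the library labelled Chi3l1 KO and none was at least 2-fold higher, with a median log2 difference of -1.39. Prss34 and Mcpt8, basophil serine proteases, were among them, with 200 and 34 reads for Prss34 and 85 and 14 for Mcpt8. Prg2, the major basic protein of eosinophil granules, had 21 and 0, Siglecf 11 and 0, and Gata2 232 and 67. Hdc, which makes histamine, had 404 and 711 reads and Gata1 318 and 361, and the summed level of the list was 18.9 and 19.1 RPM. That sum rests on 1334 and 1201 reads, so Hdc and Gata1 weigh heavily in it and it hides the lower genes. Ms4a2, Mcpt4, Tpsab1 and Prg3 were at 0 in both libraries.

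Of 15 monocyte and macrophage markers, 2 were at least 2-fold lower and 3 higher, at a summed level of 31.6 and 34.1 RPM. Ly6c2 alone had 1671 of the 2230 reads in the library labelled WT. It had 1608 of the 2147 in the library labelled Chi3l1 KO, so the sum mostly follows that gene. The lower genes were Lyz2 and Cd14, the latter with 12 and 0 reads, while Mrc1 had 0 and 29 and Vcan 0 and 15, and Csf1r had 97 and 174. Adgre1, Marco and the 3 C1q genes were at 0 in both. Of 10 B cell markers, 5 were at least 2-fold higher and none lower, at a summed level of 71.4 and 154 RPM. Among 10 dendritic cell markers 1 was at least 2-fold lower and 3 were at least 2-fold higher. Among 6 NK cell markers none was at least 2-fold lower and 3 were at least 2-fold higher. Of those 3, Klra8 had 11 and 39 reads, Ncr1 0 and 6 and Klre1 0 and 2. Among 13 erythroid and platelet markers 3 were at least 2-fold lower and 1 was at least 2-fold higher. Of 11 T cell markers only Ifng was past 2-fold, with 3483 and 8733 reads. The part of these cell types in the difference of the neutrophil granule genes was not tested.

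**Figure D4:**
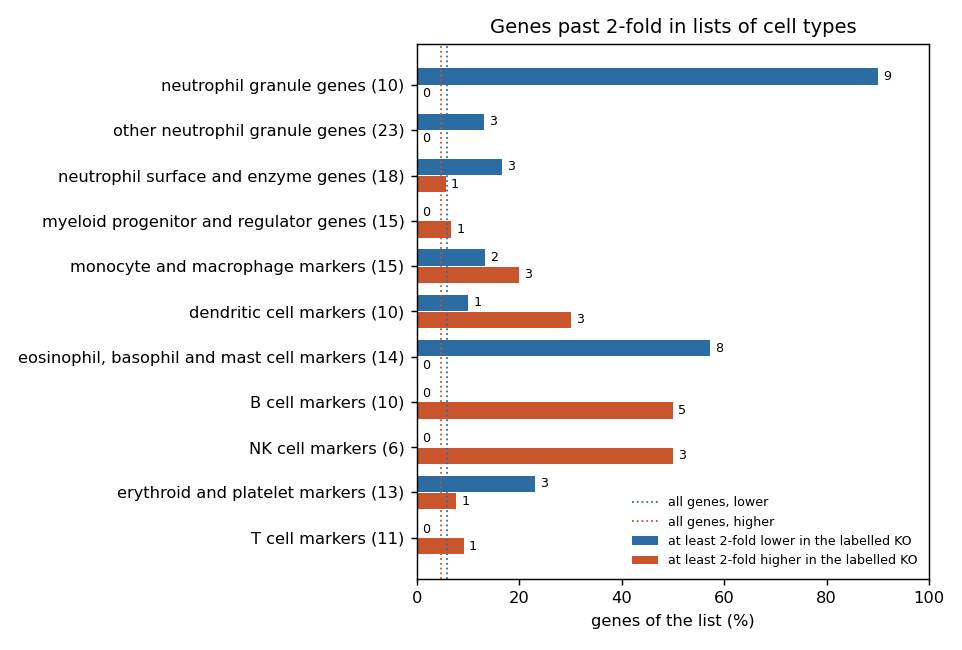
Percent of the listed genes (x axis) that were at least 2-fold lower (blue) or higher (orange) in the library labelled Chi3l1 KO Th1, for each list (y axis, with its number of genes), with dotted lines at 5.81% and 4.70% for all genes and the number of genes beside each bar. The neutrophil granule genes (9 of 10) and the eosinophil, basophil and mast cell markers (8 of 14) had the highest shares lower. Of the 10 B cell markers, 5 were higher and none was lower. The relatives by family are not shown here.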

How the data were processed

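RNA of the 2 libraries, WT Th1 and Chi3l1 KO Th1, was made into SENSE mRNA-Seq libraries from poly(A) RNA. The authors mapped paired reads with TopHat, counted unique and multiple alignments for edgeR, and applied a global normalization. The submitters' processing notes name mm10. The annotation was not given in the sources used here. Each deposited value is taken here to be log2(normalized count + 1), a unit inferred from the values.

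The worth of 1 read was found by a grid search as 0.969 (WT) and 0.967 (KO) normalized counts. With it 100.0% of the values under 40 were within 0.25 of a whole read, and larger read numbers are rougher. The log2 difference was the deposited KO value minus the WT value. With 1 sample per genotype no test was made. Poisson and Clopper-Pearson intervals (95%) and the floor of 3 reads cover counting error only. Folds of genes at 0 are bounds against 3 reads per library. Gene coordinates and exon lengths are from GENCODE M21 (GRCm38, the same assembly as mm10) and promoter windows from RefSeq (GRCm38.p6).

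The members and lists were chosen with earlier results of these data known. All 10 genes are named. From the other lists the rule named genes with at least 10 reads and a 2-fold change, at most 4 a list, and some fixed names. C/EBP, S100, peroxidase and granzyme relatives and genes at 0 were named after their values were seen. So were Spi1, Irf8, Runx1, Srgn, Pglyrp1, Cst7, Gata1, Gata2, Hdc, Ly6c2, Ncr1 and Klre1. Alternatives were another pseudocount, a read filter, 3 scalings and other thresholds, and, chosen after seeing the data, the removal of a GC trend and of Cebpa. The scripts were tested on simulated data. The genes changed there all had more reads than the 10 genes, so recovery of changes at the level of the 10 was not tested. Scripts ran under Python 3.11.15 with scipy 1.17.1, matplotlib 3.10.9, pandas 2.3.3 and numpy 2.4.6.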

Additional observations from a re-analysis of the deposited data

How the results depend on the processing

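Of the 10 neutrophil granule genes, 9 were at least 2-fold lower in the library labelled Chi3l1 KO as deposited, and 8 or 9 were under each alternative tried, which were another pseudocount, a read filter, 3 scalings, thresholds of 1.5-fold and 3-fold and the removal of a GC trend. The last was chosen after seeing the data, and 6 of the 8 genes past the read filter passed it through the library labelled WT alone. Among all genes as deposited, 5.81% were at least 2-fold lower and 4.70% at least 2-fold higher. These shares were 8.49% and 6.72% past the read filter. They were 28.7% and 23.7% among genes whose higher library had 2 to 54 reads. The 9 lower granule genes include S100a8, S100a9 and Cebpe, whose read-ratio intervals include no difference. The median log2 difference moved from -2.54 to -4.89 with a pseudocount of 0.1, because 6 of the genes are at 0 in the library labelled Chi3l1 KO and the pseudocount sets their value. No difference changed sign among the 9 detected genes. For the 6 at 0 in the library labelled Chi3l1 KO, no pseudocount, scaling or threshold could have changed it, so their sign is no check. Their 2-fold calls also rest on the reads in the library labelled WT alone, so the stable count of lower genes is little check. Cebpa ranged from -9.03 to -5.28 and Cebpe from -4.32 to -1.08. Scaling to the library total put the median log2 difference of genes above 0 in both libraries at 0.147 instead of -0.003, and that of the detected granule genes at -2.47. The log2 ratio of the summed reads ran from -4.20 to -3.43, the latter without Cebpa. Camp, at 0 in both, went to 0.13 with the GC trend removed. No paired analysis was possible because each genotype has 1 library and the labels carry no replicate numbers. Depth limits S100a9, Cebpe and Camp, whose reads were at or under the floor of 3 in both libraries.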
